A study of Homo sapiens with 9 samples.

Results

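The peroxiredoxins and the thioredoxin system were examined in RNA from SKNO1 cells depleted of ASXL2. The set held the 6 peroxiredoxins PRDX1, PRDX2, PRDX3, PRDX4, PRDX5 and PRDX6, the thioredoxins TXN and TXN2, and the thioredoxin reductases TXNRD1 and TXNRD2. A member was a gene whose symbol in the count files matched one of these 10 names, out of 25680 symbols. Where a symbol had several RefSeq transcripts, the transcript with the highest total count was used. All 10 members passed the filter on low counts, and so did 14199 genes in all. PRDX3 was chosen because it was higher after knockdown of ASXL2 in these same samples. Its levels in the knockdown comparisons are therefore given as a description, with no p value. The other 9 members were chosen by family, to ask whether PRDX3 was higher alone.

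SKNO1 is a human acute myeloid leukaemia line that expresses the AML1-ETO fusion protein and, per the study's methods, is grown with GM-CSF. The 9 samples formed 3 groups of 3, labelled EV, SH2 and SH3. The labels link SH2 and SH3 to ASXL2, and the study describes 2 shRNAs against ASXL2 and a control shRNA, while EV is not explained in the labels. All 3 groups carried the fusion, and all stem from 1 cell line. Within each group the samples are numbered 1, 13 and 25, and what the numbers stand for is not stated. The extraction text speaks of sorted cells from bone marrow, although the samples are labelled as the cell line. In bulk RNA, fewer cells that express a gene and less of its RNA per cell cannot be told apart.

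Peroxiredoxins are thiol peroxidases that reduce hydrogen peroxide through a reactive cysteine. PRDX1, PRDX2 and PRDX6 act mainly in the cytosol, PRDX3 in mitochondria, PRDX4 in the endoplasmic reticulum, and PRDX5 in mitochondria, peroxisomes and the cytosol. Oxidized peroxiredoxins are mostly returned to the reduced form by thioredoxin, TXN in the cytosol and TXN2 in mitochondria. Thioredoxin is in turn reduced with NADPH by the selenoproteins TXNRD1 in the cytosol and TXNRD2 in mitochondria. PRDX6 differs in that it has a single catalytic cysteine and is reduced with glutathione. TXN, TXNRD1 and PRDX1 are textbook targets of NFE2L2, a transcription factor of the oxidative stress response that binds antioxidant response elements.

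The totals with 1 transcript per gene ranged from 27714431 to 35406063 counts per sample, so that 3 counts corresponded to 0.0825 to 0.109 CPM, that is counts relative to the sample's TMM-scaled total. The members had 1511 to 18347 counts per sample. ASXL2, the targeted gene, was lower in all 6 knockdown samples than in the 3 EV samples, with 48.8% ± 4.26 of the level of the same-numbered control left in SH2 and 45.8% ± 8.13 in SH3 (SD, n = 3). The log2 fold change of ASXL2 for the mean of both shRNAs was -1.08 without the replicate number as a block (adjusted edgeR p 0.178) and -1.09 with it (adjusted edgeR p 0.000980). The samples numbered 1 stood apart from the rest. In the knockdown comparisons a value without them is given for PRDX3 only. All 10 myeloid blast markers were detected, with a summed level of 7806 to 11808 CPM in the 9 samples, although CD34 had only 2 to 10 counts. CD3E, CD3G, MS4A1, HBB and COL1A2 had no counts in any sample. The summed T-cell and erythroid markers reached at most 0.247 and 0.443 CPM, and fibroblast markers 2.07 CPM. B-cell markers summed to 53.7 to 68.9 CPM, nearly all from CD79B. In each list the ranges of the 3 groups overlapped.

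PRDX3 is a protein-coding gene of chromosome 10, from 120927232 to 120938324 (GRCh37, minus strand). In the deposited counts it was represented by NM_006793. Its promoter is shown because PRDX3 is the member that differed most between the groups, and that of TXNRD1 because it was the only member with an antioxidant response element in the 250 bases before the start site. The sequences are from RefSeq on build GRCh38.p14, written 5′ to 3′ on the strand of the gene. Capitals mark the GC box, GGGCGG on either strand, in PRDX3, and the antioxidant response element, TGACNNNGC on either strand, in TXNRD1, which has a pair of annotated promoters with this element.
PRDX3 promoter, chr10:119178813-119179062, minus strand: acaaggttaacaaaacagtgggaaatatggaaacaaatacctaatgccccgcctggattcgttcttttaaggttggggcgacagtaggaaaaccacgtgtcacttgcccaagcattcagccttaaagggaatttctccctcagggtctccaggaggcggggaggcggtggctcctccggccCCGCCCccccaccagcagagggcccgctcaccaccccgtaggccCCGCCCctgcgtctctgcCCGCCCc
TXNRD1 upstream promoter, chr12:104215529-104215778, plus strand: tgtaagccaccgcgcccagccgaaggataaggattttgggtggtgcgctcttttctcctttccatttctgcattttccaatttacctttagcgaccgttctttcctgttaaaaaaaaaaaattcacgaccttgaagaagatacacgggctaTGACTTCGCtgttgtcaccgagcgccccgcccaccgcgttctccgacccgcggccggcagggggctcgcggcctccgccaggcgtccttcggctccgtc
TXNRD1 downstream promoter, chr12:104286782-104287031, plus strand: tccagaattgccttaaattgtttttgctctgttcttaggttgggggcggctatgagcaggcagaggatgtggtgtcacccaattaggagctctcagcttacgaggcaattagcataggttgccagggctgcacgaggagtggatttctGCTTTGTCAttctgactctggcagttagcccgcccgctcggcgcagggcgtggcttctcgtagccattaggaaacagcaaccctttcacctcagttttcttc

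Of the 10 members, 7 had a promoter in the RefSeq table; PRDX1, PRDX6 and TXN2 had no entry. The PRDX3 promoter held 3 GC boxes, no antioxidant response element and no match to TGTGGT, a RUNX core motif searched because RUNX1 is part of the AML1-ETO fusion. Among 35116 promoter windows of 250 bases, 42.6% held a GC box, 10.9% the antioxidant response element and 11.0% the RUNX core, counting either strand. The downstream TXNRD1 promoter was the only member window with a RUNX core. The matches shown in capitals did not overlap those to another motif. Such matches are descriptions of letters and not of bound sites.

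The first question was which peroxiredoxins the cells expressed. Levels between genes were compared as CPM per kb of transcript, with lengths from the GENCODE annotation on GRCh37. In EV cells, PRDX1 and TXN were the most abundant members at 472 ± 101 and 455 ± 70.6 CPM per kb (SD, n = 3), and their ranges over the samples overlapped. PRDX6 followed at 171 ± 9.59 CPM per kb, above the ranges of all members below it. PRDX4, PRDX2 and PRDX5 stood at 133 ± 12.2, 132 ± 9.58 and 123 ± 6.73 CPM per kb, and neighbours in this order overlapped. TXN2, TXNRD1 and PRDX3 came next at 77.0 ± 4.40, 76.2 ± 11.3 and 62.5 ± 11.3 CPM per kb, where TXN2 overlapped TXNRD1 and TXNRD1 overlapped PRDX3. TXNRD2 was the least abundant at 28.3 ± 1.21 CPM per kb, below the range of every other member. In control cells PRDX3 therefore had the lowest level per length of the 6 peroxiredoxins.

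**Figure D1:**
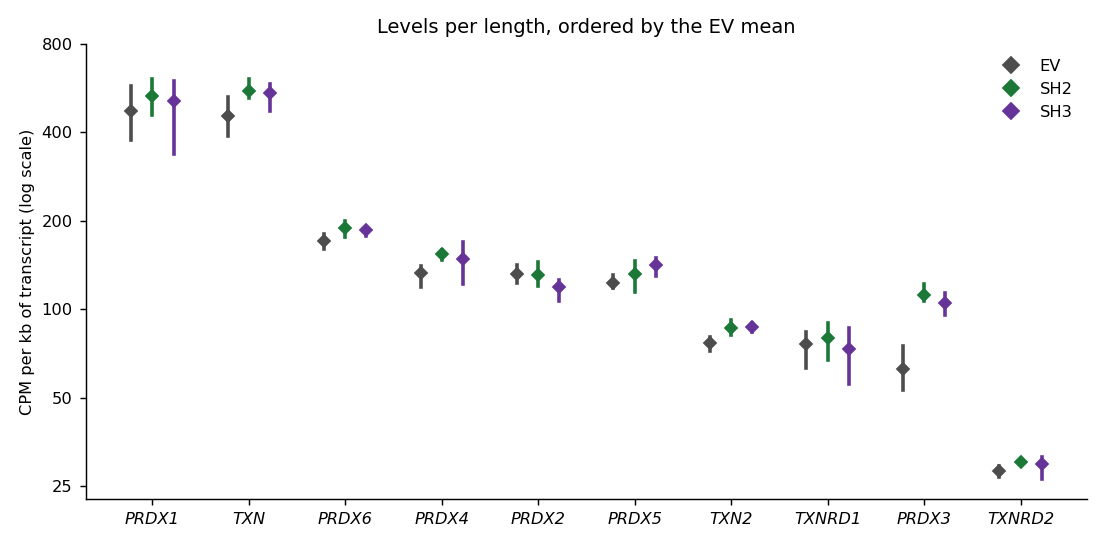
Level of each member in CPM per kb of transcript on a log axis, ordered by the EV mean. Diamonds are means and lines span the 3 samples of EV, SH2 or SH3. The 3 groups lie close together for every member except PRDX3, whose SH2 and SH3 lines lie above its EV line. Those of TXN2 also lie above its EV line, by a small gap from 80.6 to 81.6 CPM per kb.

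PRDX3, the peroxiredoxin of the mitochondrial matrix, was higher in both knockdown groups. Its level was 92.3, 82.4 and 117 CPM in the EV samples numbered 1, 13 and 25. It was 166, 167 and 190.1 CPM in SH2 and 148, 164 and 177 CPM in SH3, in the same order. All 6 knockdown samples lay above all 3 EV samples. Against the same-numbered control, the level was 182% ± 20.0 in SH2 and 171% ± 25.4 in SH3 (SD, n = 3). On the log2 scale the 6 ratios ran from 0.60 to 1.02, with the highest in the samples numbered 13, where EV was lowest. The fitted log2 fold change (edgeR, no replicate block) was 0.85 (SE 0.14) for SH2, 0.75 (SE 0.14) for SH3 and 0.80 (SE 0.12) for the mean of both. Leaving out any 1 sample or all samples of 1 number, with or without the replicate number as a block, gave 0.69 to 0.95 for the mean of both. Without the samples numbered 1 it was 0.81. Among the 14199 tested genes this value ranked 82nd from the highest, and those for SH2 and SH3 ranked 57th and 216th. These are the values by which PRDX3 was chosen. The other RefSeq transcript of PRDX3, NM_014098, held 99.9% as many counts, and both transcripts gave a log2 difference of 0.81 between the mean knockdown and mean EV levels.

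**Figure D2:**
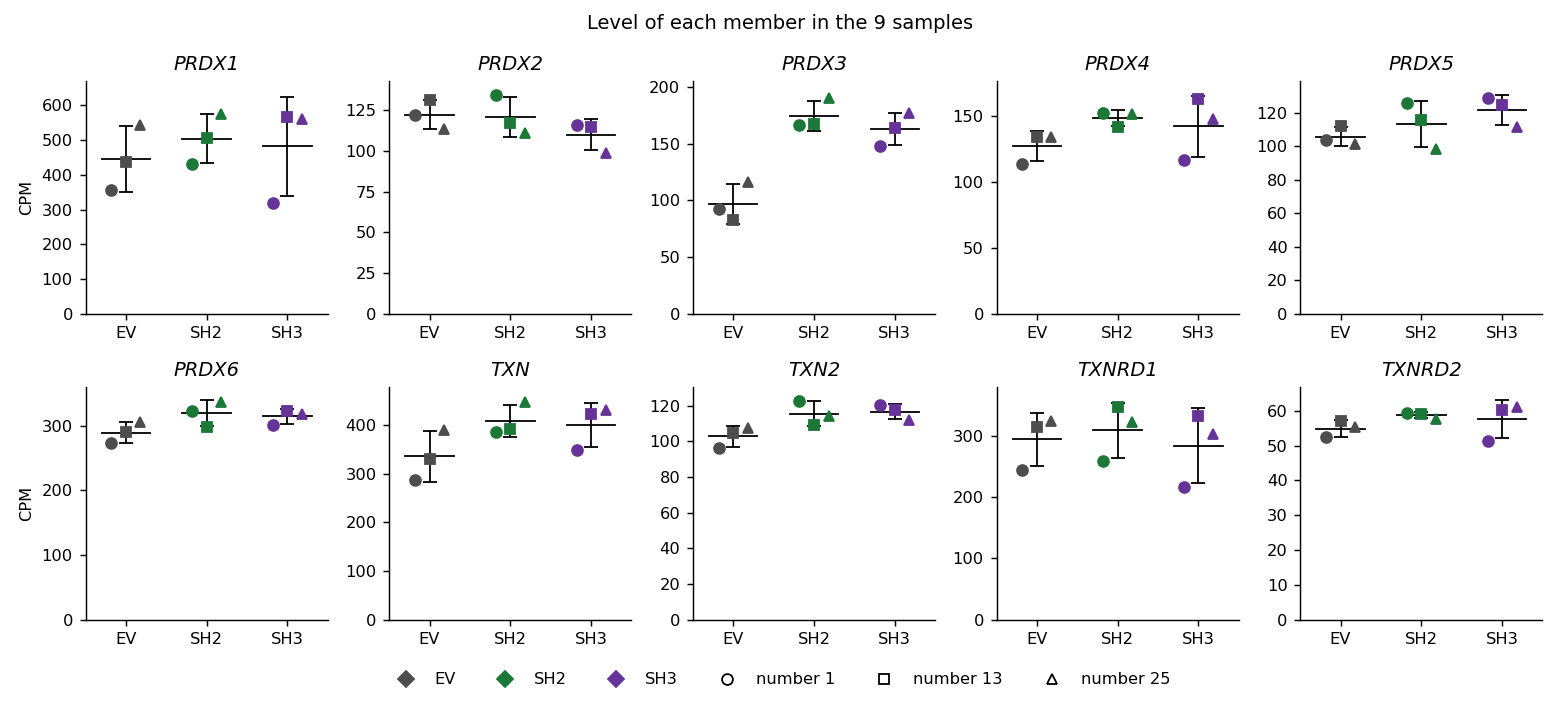
CPM of each member in the 9 samples, with circles, squares and triangles for the samples numbered 1, 13 and 25, and the mean ± SD of each group in black. PRDX3 shows a gap between 117 CPM, its highest EV sample, and 148 CPM, its lowest knockdown sample, whereas most other members overlap between the groups.

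PRDX3 took a larger part of the peroxiredoxin transcripts. The values below draw on the levels by which PRDX3 was chosen, so they are no separate result. Its share of the summed CPM per kb of the 6 peroxiredoxins was 6.14%, 4.82% and 6.19% in the EV samples numbered 1, 13 and 25. The mean share was 5.72% ± 0.777 in EV, 8.96% ± 0.257 in SH2 and 8.74% ± 0.775 in SH3 (SD, n = 3). The sum itself was 1094 ± 122 CPM per kb in EV, 1253 ± 61.7 in SH2 and 1210 ± 176 in SH3. In order of level per length, PRDX3 stood 9th of the 10 members in EV and 7th in both SH2 and SH3. It passed TXN2, the mitochondrial thioredoxin, to which its ratio per length was 0.811 ± 0.127 in EV, 1.30 ± 0.133 in SH2 and 1.21 ± 0.150 in SH3.

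The second question was whether the other members were higher with PRDX3. For the mean of both shRNAs, no other member passed an adjusted p of 0.05 in edgeR's quasi-likelihood test, with or without the replicate block. Without the block 0% of all tested genes passed in any of the 4 contrasts between groups, and with it 0.282% passed for SH2, 0.416% for SH3 and 1.1% for the mean of both. The fit without the block therefore called no gene. There 942 genes (6.63%) had an unadjusted edgeR p under 0.05 for the mean of both, with TXN and TXN2 the only ones of the other 9 members. With the block, 4 of the other 9 members had an unadjusted edgeR p under 0.05, beside 20.4% of genes. DESeq2 without a block called 0.298% of genes, none of the other 9 members among them. The log2 fold changes of the other 9 members ran from -0.08 to 0.27, against 0.80 for PRDX3. Without the SH3 sample numbered 1, the fit with the block called 1755 of 14291 genes for the mean of both, and of the other members PRDX1, PRDX4 and TXN were among them, at edgeR adjusted p values of 0.0494, 0.0289 and 0.0134. For SH2 that fit called 1604 of 14291 genes, TXN among them (edgeR adjusted p 0.0173). In 8 of the 9 the value with all samples was above 0, as it was in 53.0% of all genes, and their median was 0.14 against 0.012 over all genes.

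**Figure D3:**
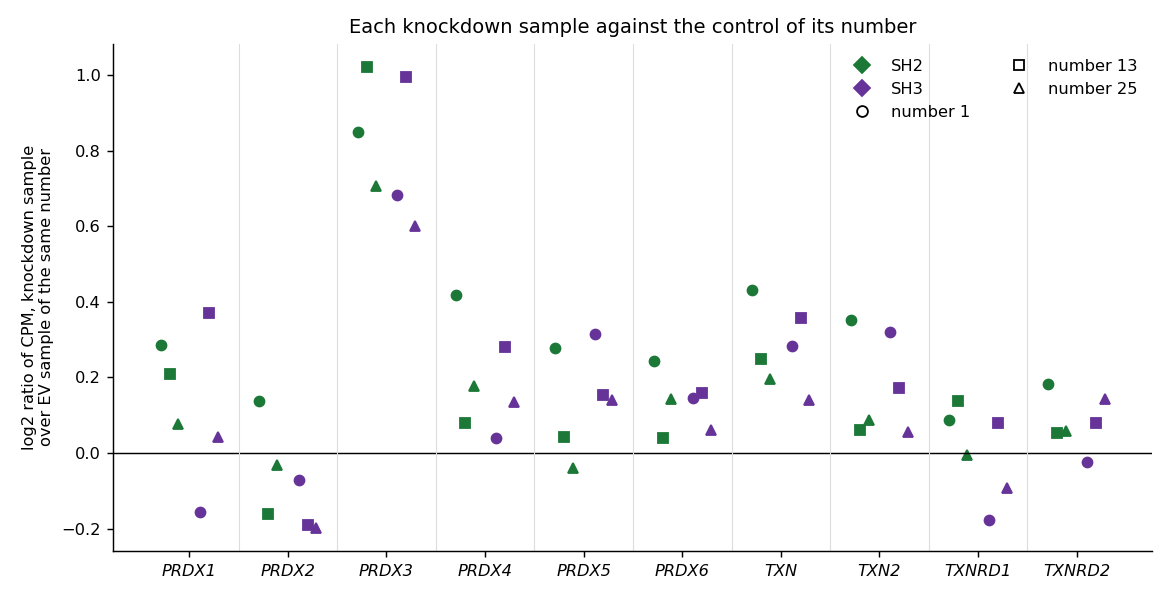
The log2 ratio of CPM of each knockdown sample over the EV sample of the same number, in green for SH2 and purple for SH3. The 6 ratios of PRDX3 run from 0.60 to 1.02, above every ratio of the other 9 members, whose highest is 0.43 for TXN.

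TXN, the cytosolic thioredoxin, came closest to PRDX3 in size. It was at 286, 330.5 and 389.9 CPM in the EV samples numbered 1, 13 and 25, at 386, 393 and 447 CPM in SH2 and at 348, 423 and 430.0 CPM in SH3. The highest EV sample lay above the lowest samples of SH2 and SH3, but each knockdown sample was above the control of its number. The log2 fold change for the mean of both was 0.27 (SE 0.12, adjusted edgeR p 0.744), and with the block 0.28 (SE 0.07, adjusted edgeR p 0.0738). DESeq2 with the block called TXN, the only other member it called, for SH2, SH3 and the mean of both. There it called 2.97%, 3.97% and 4.82% of genes, and the adjusted p of TXN for the mean of both was 0.00620.

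TXN2 was the only member besides PRDX3 whose 6 knockdown samples all lay above the 3 EV samples, a pattern held by 2.16% of tested genes and by 4.98% of those in the shortest of 5 length classes, to which both belong. Its levels were 96.3, 105 and 108 CPM in EV, 123, 109 and 114 CPM in SH2 and 120.2, 118 and 112 CPM in SH3. The gap between the highest EV and the lowest knockdown sample was small beside the spread within groups. The log2 ratios of TXN2 to the same-numbered control were largest in the samples numbered 1, at 0.35 in SH2 and 0.32 in SH3. In numbers 13 and 25 they were 0.06 and 0.09 in SH2 and 0.17 and 0.05 in SH3. The log2 fold change of TXN2 for the mean of both was 0.17 (SE 0.08, adjusted edgeR p 0.744), and with the block 0.17 (SE 0.07, adjusted edgeR p 0.176). TXN2 is the partner that reduces PRDX3 in mitochondria.

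The reductases showed less. TXNRD1 was at 244, 315 and 324 CPM in EV, 259, 346 and 322 CPM in SH2 and 216, 333 and 304 CPM in SH3, so that the groups overlapped fully. For the mean of both shRNAs its log2 fold change was 0.011 (SE 0.16), with a 95% interval from -0.34 to 0.37, and its sign turned in 10 of the 24 fits that left samples out. TXNRD2, the mitochondrial reductase, was at 52.3 to 57.0 CPM in EV, 57.7 to 59.4 CPM in SH2 and 51.4 to 61.2 CPM in SH3. Its log2 fold change was 0.08 (SE 0.08, adjusted edgeR p 0.934). Of the mitochondrial components, PRDX3 thus stood at 0.80 on the log2 scale, TXN2 at 0.17 and TXNRD2 at 0.08.

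Among the peroxiredoxins, PRDX1 had the widest spread. It was at 355, 439 and 545 CPM in EV, 433, 507 and 575 CPM in SH2 and 319, 567 and 561 CPM in SH3, and the SH3 sample numbered 1 was the lowest of all 9. Its log2 fold change for the mean of both was 0.14 (SE 0.20, adjusted edgeR p 0.970). PRDX4, the peroxiredoxin of the endoplasmic reticulum, was higher than the same-numbered control in 6 of 6 pairs, by 0.04 to 0.42 on the log2 scale. It was at 114, 134 and 134 CPM in EV, 152, 141 and 151 CPM in SH2 and 117, 162 and 147 CPM in SH3, where only the SH3 sample numbered 1 lay among the EV samples. It had a log2 fold change of 0.19 (SE 0.11, adjusted edgeR p 0.858). PRDX6, the peroxiredoxin reduced with glutathione, was at 272 to 305 CPM in EV, 297 to 337 CPM in SH2 and 301 to 323 CPM in SH3, and the ranges overlapped. It was also higher in 6 of 6 pairs, by 0.04 to 0.24, with a log2 fold change of 0.13 (SE 0.08, adjusted edgeR p 0.858). Besides PRDX3, which was chosen for its rise, PRDX4, PRDX6, TXN and TXN2 were higher in 6 of 6 pairs. So were 11.6% of tested genes, 22.6% of those in the shortest length class and 15.8% of those in the next. PRDX4, TXN and TXN2 belong to the shortest class and PRDX6 to the next. The 3 pairs of SH2 and the 3 of SH3 share their controls.

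PRDX5, which shares the mitochondria with PRDX3, was at 101 to 112 CPM in EV, 98.6 to 126 CPM in SH2 and 112 to 129 CPM in SH3. Its log2 fold change was 0.15 (SE 0.10, adjusted edgeR p 0.858). PRDX2 was the only member with a lower mean in both knockdown groups, at 122 ± 8.87 CPM in EV, 121 ± 12.1 in SH2 and 110.1 ± 9.68 in SH3 (SD, n = 3). The log2 fold change of PRDX2 was -0.08 (SE 0.09, adjusted edgeR p 0.952), and the sample ranges overlapped. For the 9 members other than PRDX3, the edgeR adjusted p without the block ranged from 0.744 to 0.997 for the mean of both.

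The fold changes after knockdown were related to annotated transcript length. Over the 12655 tested genes with a length, the log2 fold change for the mean of both shRNAs had a Spearman correlation of -0.37 with length, a description across genes that are not independent. Its median was 0.10 in the shortest of 5 equal length classes and -0.10 in the longest. Of the members, 7 were in the shortest class, of 53 to 1613 bases, in which 71.4% of genes had a value above 0 and 22.6% were higher in 6 of 6 pairs. PRDX6 and TXNRD2 were in the next class and TXNRD1 in the one before the longest. With offsets for length and GC content and the replicate block, the log2 fold change of PRDX3 was 0.70 and that of TXN 0.13, while the median of the other 9 members went from 0.14 to 0.055. PRDX2 was then at -0.16 (SE 0.05, adjusted edgeR p 0.228), and no other member passed, as against 0.15% of genes. The part of transcript length in these values was not tested beyond this.

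**Figure D4:**
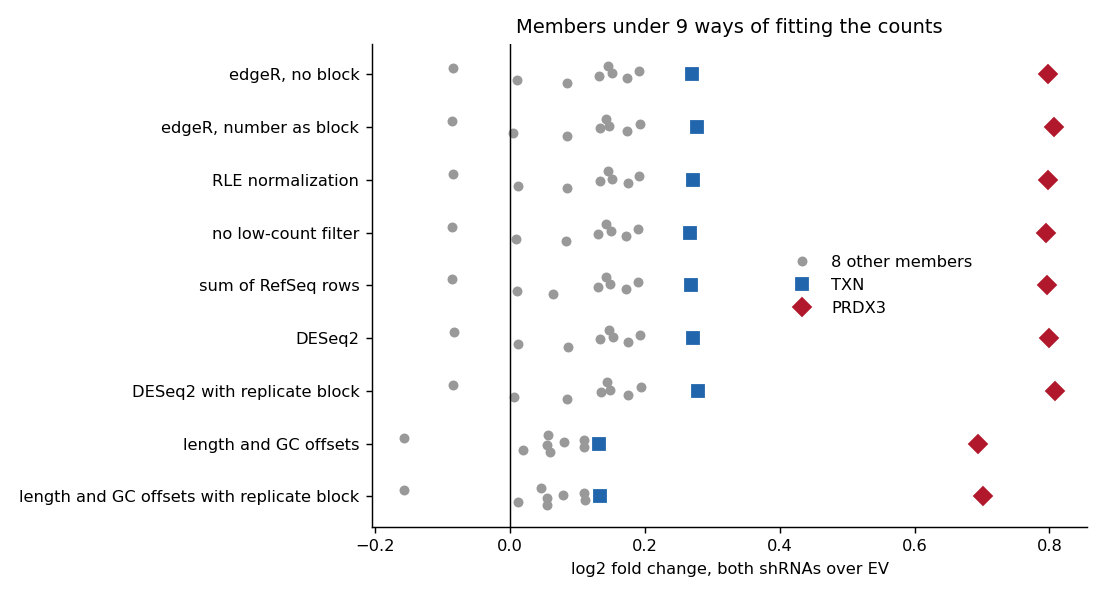
Log2 fold change for the mean of both shRNAs over EV under 9 ways of fitting the counts, with PRDX3 as red diamonds, TXN as blue squares and the 8 other members as grey points. PRDX3 stays between 0.69 and 0.81 in all 9, and TXN moves from 0.27 or 0.28 to 0.13 with the length and GC offsets.

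The shRNAs were then set against each other. PRDX3 was chosen for its higher level in these same SH2 and SH3 samples, so its values here are a description too, with no p value. It was at 175 ± 13.5 CPM in SH2 and 163 ± 14.3 CPM in SH3, a log2 difference of -0.10 (SE 0.14) with a 95% interval from -0.40 to 0.21. With the block the difference was -0.10 (SE 0.08), from -0.28 to 0.08. A difference of up to 0.40 on the log2 scale lies within that first interval. The differences of the other 9 members ran from -0.14 for PRDX2 to 0.10 for PRDX5, none past the threshold. With the block 0.106% of tested genes passed in this contrast, none of them a member.

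The replicate numbers gave a comparison that had no part in the choice of PRDX3. The samples numbered 1 were compared with those numbered 13 and 25 across the 3 groups, with the group as a term in the fit. In edgeR's test 46.3% of all tested genes passed, 24.1% higher and 22.2% lower in number 1, and of the 10 members 3 passed, all lower. TXNRD1 had the lowest adjusted p, with a log2 difference of -0.44 (SE 0.06, adjusted edgeR p 0.000857). PRDX1 was lower by a log2 difference of -0.53 (SE 0.10, adjusted edgeR p 0.00204) and TXN by one of -0.25 (SE 0.07, adjusted edgeR p 0.0140). Without the EV sample numbered 1, the adjusted p of TXN in edgeR was 0.0704. For TXNRD1 and PRDX1 all 3 samples numbered 1 lay below the other 6, as for 12.1% of tested genes. In each of the 3 groups the sample numbered 1 was the lowest for PRDX1, TXN and TXNRD1, which held for 22.3% of genes. With offsets for length and GC content 6 of the 10 members passed, all lower, beside 51.8% of genes, 31.1% lower and 20.6% higher.

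**Figure D5:**
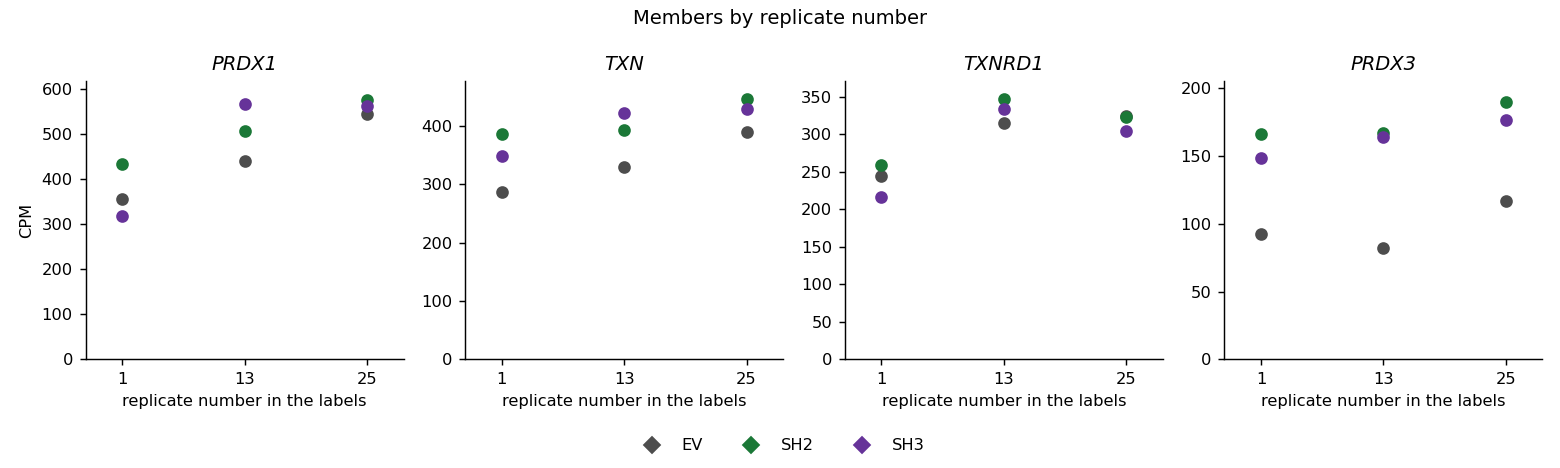
CPM of PRDX1, TXN, TXNRD1 and PRDX3 by the replicate number in the labels, with 1 point per sample coloured by group. PRDX1, TXN and TXNRD1 have their lowest point at number 1 in each group, and PRDX3 parts by group, with EV below SH2 and SH3 at each number.

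For PRDX3 itself, number 1 stood against the rest at a log2 difference of -0.13 (SE 0.07, adjusted edgeR p 0.149) with a 95% interval from -0.29 to 0.02. With the length and GC offsets this was -0.20 (SE 0.07, adjusted edgeR p 0.0312), and without the EV sample numbered 13 it was -0.18 (adjusted edgeR p 0.0499). PRDX4, at -0.19 (adjusted edgeR p 0.0803), was at -0.23 (adjusted edgeR p 0.0255) with these offsets. It also passed without the SH2 sample numbered 1 or 13, at edgeR adjusted p values of 0.0112 and 0.0244. The fit without the EV sample numbered 13 called 6282 of 14356 genes. Those without the SH2 sample numbered 1 or 13 called 6095 of 14339 and 5990 of 14342. TXNRD2 went from -0.10 (adjusted edgeR p 0.194) to -0.22 (adjusted edgeR p 0.0257) with the offsets. Between the samples numbered 25 and 13, PRDX3 was higher in number 25 in each of the 3 groups, as were 25.8% of genes, by a log2 difference of 0.26 (SE 0.08, adjusted edgeR p 0.0845). DESeq2, which called 7.37% of genes there, and the length and GC offsets, with 7.43%, placed that difference past the threshold, at adjusted p values of 0.0482 in DESeq2 and 0.0448 in edgeR. Its edgeR adjusted p was 0.0168 without all samples numbered 1, 0.0181 without the SH3 sample numbered 1 and 0.0393 without the SH3 sample numbered 13. In this contrast those fits called 3027 of 14083, 2750 of 14291 and 896 of 14345 genes. In the fit of all samples 5.87% of tested genes passed this contrast and none of the 10 members. PRDX2 and PRDX5 were lower in number 25 by log2 differences of -0.17 (SE 0.07, adjusted edgeR p 0.176) and -0.18 (SE 0.07, adjusted edgeR p 0.165). Without the samples numbered 1 both passed, at edgeR adjusted p values of 0.0424 and 0.0275, in the fit that called 3027 of 14083 genes.

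Other genes of thiol and peroxide metabolism were counted in lists chosen with earlier results known. Of 75 genes that are no members, 66 passed the filter. In edgeR without the block none passed for the mean of both shRNAs, 2 (FTL and SOD2) had an unadjusted p under 0.05, DESeq2 without the block also called 0, and the median log2 fold change was 0.11. In edgeR with the block 1 of the 66 passed, beside 1.1% of all tested genes. This was MSRB3, a methionine sulfoxide reductase that uses thioredoxin. It was at 126, 106 and 79.8 CPM in EV, 99.8, 76.4 and 50.4 CPM in SH2 and 97.3, 85.8 and 69.5 CPM in SH3, lower than its control in 6 of 6 pairs though the groups overlapped. MSRB3 fell by 0.39 on the log2 scale with the block (SE 0.07, adjusted edgeR p 0.0462), and its value without it was -0.38 (adjusted edgeR p 0.837). DESeq2 with the block called 4 of the 66, MSRB3 as lower (adjusted p 0.000800) and FTL, NQO1 and OSGIN1 as higher, beside the 4.82% of all genes given above.

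Of the 25 thioredoxin-fold proteins and thioredoxin partners 21 were tested, and 17 had a value above 0. Of the glutathione and glutaredoxin genes 16 of 19 were tested, 15 had a value above 0, and the median was 0.17. Of all tested genes 53.0% had a value above 0, and of those in the shortest length class 71.4%. The part of length in these lists was not tested. The gene with the largest value was MGST2, a microsomal glutathione transferase, at 49.3 ± 5.51 CPM in EV, 58.5 ± 11.0 in SH2 and 57.5 ± 5.39 in SH3, a log2 fold change of 0.23 (SE 0.13, adjusted edgeR p 0.825). SOD2, the superoxide dismutase that makes hydrogen peroxide in the mitochondrial matrix, was at 44.6 to 48.5 CPM in EV, 40.4 to 46.5 CPM in SH2 and 32.2 to 39.1 CPM in SH3. Its value was -0.25 (SE 0.09, adjusted edgeR p 0.688), and with the block -0.25 (SE 0.06, adjusted edgeR p 0.0736). DESeq2 with the block called SOD2 lower in SH3, at -0.39 (adjusted p 0.00501), and gave -0.25 for the mean of both (adjusted p 0.0542). The 4 tested genes of superoxide dismutases and catalase had 2 values above 0. The 4 genes listed under peroxiredoxin repair were SRXN1 and the sestrins SESN1, SESN2 and SESN3. Of these SESN1 had the largest change, at -0.19 (SE 0.18, adjusted edgeR p 0.938). SRXN1 was at 21.7 ± 5.57 CPM in EV, 24.3 ± 5.51 in SH2 and 21.7 ± 3.86 in SH3, and the groups overlapped. Of the genes of mitochondrial NADPH supply 6 were tested, led in size by the malic enzyme ME3 at -0.34 (SE 0.16, adjusted edgeR p 0.784).

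All 18 genes of the list of NFE2L2, its inhibitor KEAP1 and NFE2L2 targets were tested. Of these 16 had a value above 0, beside 53.0% of all genes, with a median of 0.12. OSGIN1 had the largest, 0.47 (SE 0.56, adjusted edgeR p 0.957), with levels from 2.53 to 11.5 CPM in EV. In DESeq2 with the block 3 of the 18 were higher for the mean of both, and 2 of them are named here after their values were seen. FTL, the ferritin light chain, was at 1557, 1891 and 2018 CPM in EV, 2113, 2391 and 2282 CPM in SH2 and 2468, 2500.2 and 2136 CPM in SH3, all 6 knockdown samples above EV, with a log2 fold change of 0.35 (SE 0.08, adjusted DESeq2 p 0.00245). NQO1, a quinone reductase, was at 16.9 to 47.7 CPM in EV, 26.9 to 61.0 CPM in SH2 and 17.7 to 50.1 CPM in SH3, and its log2 fold change was 0.38 (SE 0.11, adjusted DESeq2 p 0.0194). The groups overlapped for NQO1 and for OSGIN1, which stood at 0.50 (SE 0.16, adjusted DESeq2 p 0.0453). In edgeR with the block the 3 genes had adjusted p values of 0.0917, 0.0911 and 0.104. In the contrast of number 1 with the rest, 12 of these 18 genes fell and 2 rose, against the 22.2% and 24.1% of all genes given above. OSGIN1 was the lowest in number 1 in all 3 groups, at 2.53, 4.09 and 3.58 CPM. TXNRD1 and TXN, which the list does not hold, fell in the same contrast.

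The genes beside PRDX3 on chromosome 10 differed less. SFXN4, a sideroflexin gene that lies 2006 bases from PRDX3 on the same strand, was at 66.3 ± 5.35 CPM in EV, 75.2 ± 3.34 in SH2 and 72.0 ± 6.52 in SH3, a log2 fold change of 0.15 (SE 0.09, adjusted edgeR p 0.849). EIF3A, an initiation factor subunit farther on that side, was at -0.13 (SE 0.08, adjusted edgeR p 0.864). On the other side GRK5, a G protein-coupled receptor kinase 28759 bases away, was at -0.24 (SE 0.15, adjusted edgeR p 0.858). MIR4681, which is annotated within the span of GRK5, had at most 1 count in a sample and did not pass the filter.

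The genes with the pattern most like that of PRDX3 over the 9 samples, by Pearson correlation of log2 CPM, were MEST (0.984), NR2F6 (0.977), HDDC3 (0.971), GPKOW (0.968) and RMND5A (0.964). The 9 samples share groups and numbers, so these are descriptions. In all 5 genes the 6 knockdown samples lay above the 3 EV samples, as in 2.16% of tested genes. PRDX3 has this pattern too, so choosing genes by likeness to it favours the pattern. MEST, at 199 ± 25.3 CPM in EV, 285 ± 9.42 in SH2 and 281 ± 27.0 in SH3, had a log2 fold change of 0.51. Of the members, TXN (0.834) and PRDX6 (0.820) were most like PRDX3, at ranks 135 and 169 among the tested genes, and PRDX2 had a correlation of -0.49.

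Whether reads from processed copies entered the counts of the members was not measured. The GENCODE annotation lists 4 pseudogenes named after PRDX3, 4 after PRDX2, 7 after TXN and 1 each after PRDX1, PRDX4, PRDX5 and TXN2. The study describes its libraries as unstranded, in a passage on sorted mouse cells, and with such libraries reads from a gene on the opposite strand could not be separated. The transcripts of a symbol held nearly equal totals in most members, and the lowest was 82.9% of the highest for PRDX5 and 79.2% for TXNRD2. For TXNRD2 the log2 difference between mean knockdown and mean EV levels was 0.08 in NM_006440 and 0.04 in NM_001282512.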

How the data were processed

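RNA-seq was analysed from 9 SKNO1 samples, described in the study as 3 biological replicates per group, so p values measure the spread between these samples. The authors deposited whole-number counts per RefSeq transcript, 48104 per sample, and the submitters' notes name STAR, featureCounts, DESeq2 and hg19, with no versions given in the sources used here. Libraries are described as unstranded in the study's methods. Of 25680 symbols, 9509 had more than 1 transcript, and counts summed over all transcripts were 2.24 times those with 1 transcript per symbol, so the transcript with the highest total was used. Counting floors cover counting error only.

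The counts were fitted with edgeR 4.0.16 in R 4.3.3 (filterByExpr, at least 10 counts and 15 in total, TMM, quasi-likelihood F test on all 9 samples, 1 coefficient per group), with Benjamini-Hochberg adjustment over 14199 genes and a threshold of 0.05. The contrasts of replicate numbers had group and number as terms. CPM used TMM effective library sizes. Alternatives were a replicate block, DESeq2 1.42.0, RLE normalization, no filter, summed transcripts, offsets for length and GC content, and left-out samples. Block fits with left-out samples were added after seeing the data. The labels give each group the numbers 1, 13 and 25. Same-numbered samples deviated together (mean correlation 0.598, lowest 0.398, over 9 pairs). The numbers were therefore taken as pairs in the ratios and in the fits with the block. The fit without the block does not use this pairing. The fits were tested on simulated data. No replicates agreed within sampling noise (chi-square per degree of freedom 18.1 to 134).

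The members, gene lists and tests were chosen with earlier results of these data known. All members were named, and of each list of other genes those past the threshold with or without the block, or otherwise the one with the largest change. Positions and lengths are from GENCODE on GRCh37, promoters from RefSeq on GRCh38.p14.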

Additional observations from a re-analysis of the deposited data

How the results depend on the processing

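With the replicate block, which pairs the samples by number, 40 genes passed for SH2, 59 for SH3, 156 for the mean of both and 15 between the shRNAs, against 0 of 14199 in each without it, where 762, 723, 942 and 293 genes had an unadjusted p under 0.05. DESeq2 called 24, 22, 42 and 11 genes without the block and 362, 469, 606 and 150 with it, and edgeR with length and GC offsets and the block called 4, 43, 19 and 8. The block changed the call of none of the 9 members other than PRDX3 in edgeR. The number of those 9 called went from 0 to 1, TXN, for SH2, SH3 and the mean of both in DESeq2 with the block. With length and GC offsets, 6 members were called in number 1 against the rest in place of 3, and 1 member, PRDX3, in number 25 against 13 in place of 0, as in DESeq2. The cause was not tested. TXN2 turned in sign with these offsets, to -0.0018 between the shRNAs (-0.0022 with the block) and -0.063 in number 1 against the rest, PRDX4 to 0.022 in number 25 against 13, and TXNRD2 there to 0.0046 with summed transcripts.

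With samples left out, counts called among the 9 members other than PRDX3 ran from 0 to 1 for SH2 and 0 to 3 for the mean of both, and counts among all 10 members from 2 to 4 for number 1 against the rest and 0 to 3 for number 25 against 13. The highest counts came from fits that called many genes. These were 1604 of 14291 for SH2, 1755 of 14291 for the mean of both and 3027 of 14083 for number 25 against 13. For number 1 against the rest they ran from 5990 of 14342 to 6282 of 14356. A lone sample left in a group and number was assumed to vary like the others. Values that turned in sign were those of PRDX1 in SH3 (-0.052 to 0.33) and between the shRNAs (-0.24 to 0.16), PRDX2 in SH2 (-0.099 to 0.055), PRDX4 between the shRNAs (-0.21 to 0.077) and in number 25 against 13 (-0.11 to 0.093), and PRDX6 (-0.087 to 0.036) and TXN (-0.10 to 0.059) between the shRNAs. TXN2 did so between the shRNAs (-0.028 to 0.075), in number 1 (-0.036 to 0.10) and in number 25 against 13 (-0.025 to 0.071). TXNRD1 did so in SH2 (-0.046 to 0.18), SH3 (-0.18 to 0.11), between the shRNAs (-0.25 to 0.038) and in the mean of both (-0.11 to 0.091), and TXNRD2 between the shRNAs (-0.075 to 0.052) and in number 25 against 13 (-0.051 to 0.023). The log2 fold change of PRDX3 over EV stayed above 0 in all fits run. PRDX3 was chosen for its rise in these samples, so that sign is no separate support.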
